A study of Mus musculus with 4 samples.

Results

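The genes described here encode the activin beta subunits (Inhba, Inhbb), myostatin and its closest relative (Mstn, Gdf11), a pair of more distant TGF-beta family ligands (Gdf10, Gdf15), follistatin (Fst) and the follistatin-like proteins (Fstl1, Fstl3). They were taken by gene symbol, and all 9 have a row among the 28649 gene rows of the deposited table. Their RNA was measured in 4 pulldown libraries from fibro-adipogenic progenitors (FAPs), stromal cells that lie between muscle fibres and can form fat or scar tissue, sorted by Sca1+ from skeletal muscle of wildtype C57Bl/6 mice whose age and sex the labels do not give. The cells were grown to about 80% confluency and transfected for 24 hours with a biotin-tagged mimic of either miR-206 or a control microRNA. Growth medium held 20% fetal bovine serum, 10% horse serum and 5 ng/ml FGF (fibroblast growth factor) for all 4 samples. After 48 hours in basal medium with 10% horse serum the mimic and the RNA bound to it were captured and sequenced. Each group holds 2 libraries, and nothing says whether these came from separate mice or cultures, so the p-values below cover the spread of these 4 samples alone, which may be technical. Follistatin and activin RNA was present in every library, and that of myostatin was nearly absent.

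Activins and myostatin are secreted dimers that bind type II receptors (Acvr2a, Acvr2b), which then switch on type I receptors such as Acvr1b and the transcription factors Smad2 and Smad3. Follistatin and Fstl3 wrap around activins, myostatin and Gdf11 and keep them from their receptors, so the balance of ligand and antagonist sets the signal. In muscle this pathway restrains fibre growth, and FAPs are known as a source of follistatin in mouse. Fstl1 carries a follistatin-type domain but acts mainly as a secreted glycoprotein in its own right, and it is a published miR-206 target in mouse myoblasts.

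A microRNA finds its targets mainly through its seed, bases 2 to 8 from the 5′ end. Both arms of the mouse miR-206 hairpin are shown, since the labels call the mimic miR-206 and the sources used here do not give its arm or sequence. The sequences are from RefSeq (GRCm38.p6, chromosome 1, plus strand), and capitals mark the seed. The 3′ arm is the one usually meant by the name.
miR-206-3p (chr1:20679055-20679076): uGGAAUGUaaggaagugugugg
miR-206-5p (chr1:20679017-20679039): aCAUGCUUcuuuauauccucaua
The seed of miR-206-3p is shared by miR-1, the other well-known microRNA of muscle. Transcript sequences were not analysed here, so which of the 9 transcripts hold a match to these seeds was not examined.

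The libraries held 8883200 and 14261600 estimated counts for the control and 14566600 and 15426700 for miR-206. Levels below are TPM (transcript abundances that share 1 fixed total in each library, corrected for length, so that genes can be compared within a library) and normalised CPM (counts divided by a library size after TMM scaling, which sets most genes equal between libraries). Fold changes come from edgeR's quasi-likelihood test on the counts of 15240 genes, with p-values adjusted over all of them. A gene is called where its adjusted p lies under 0.05. The choice of scaling matters in these data: the median log2 fold of all genes (miR-206 over control) was -0.11 with TMM, -0.40 with the upper quartile, -1.22 with total counts alone and -0.81 with TPM tested on the log2(TPM + 1) scale. Total RNA of the transfected cells was not analysed here, so more capture of a transcript, more of it per cell and more cells that make it cannot be told apart.

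The cells carried FAP markers. All 9 listed markers were detected in each library, with a summed level of 3036 and 3916 TPM in the control and 4346 and 4656 in miR-206 libraries; 3 of them (Cd34, Thy1 and Osr1) were called higher in the miR-206 pulldown and 0 lower, against 15.3% and 6.19% of all genes tested. Pdgfra, the surface receptor that defines FAPs, lay at 110 and 147 TPM in the control and 70.4 and 67.3 in miR-206. Markers of other cells were detected as well. In control replicate 1, Pecam1 (endothelial) reached 73.5 TPM and Acta2 (smooth muscle) 65.6, both below Pdgfra in that library. In miR-206 replicate 1, Rgs5 (pericyte) matched Pdgfra at 71.2 TPM. The summed level of 6 muscle fibre markers was 114 and 62.1 TPM in the control and 59.5 and 36.5 in miR-206, and that of 5 myogenic progenitor markers 22.9, 24.6, 36.4 and 23.0 in the same order. The sum for 5 endothelial markers was 78.6 and 30.2 against 34.5 and 31.5 TPM, for 5 immune markers 19.8 and 9.14 against 4.74 and 6.27, and for 5 pericyte and smooth muscle markers 72.6 and 72.8 against 96.2 and 56.1. Of these lists, 0 of 5 tested fibre markers, 2 of 4 myogenic, 1 of 5 endothelial, 0 of 4 immune and 1 of 5 pericyte and smooth muscle markers were called higher, and 0 lower. The called ones were Rgs5 (log2 fold 4.63), Myod1 (3.10), Cdh5 (2.40) and Myog (0.98). The part of these cells in the results was not tested.

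Of the 9 genes, 8 passed the filter on low counts and were tested, and Mstn did not pass. Inhba, Inhbb and Gdf11, all ligand genes, were called higher in the miR-206 pulldown, and 0 of the 8 were called lower. Among all genes tested 15.3% were called higher and 6.19% lower. The median log2 fold of the 8 was 0.62, against -0.11 over all genes tested. The ligand genes Gdf10 and Gdf15, the antagonist genes Fst and Fstl3, and also Fstl1, were not called in either direction with TMM. The normalised CPM of the groups did not overlap for 5 of the 8 genes, and 62% of all genes tested showed the same.

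**Figure D1:**
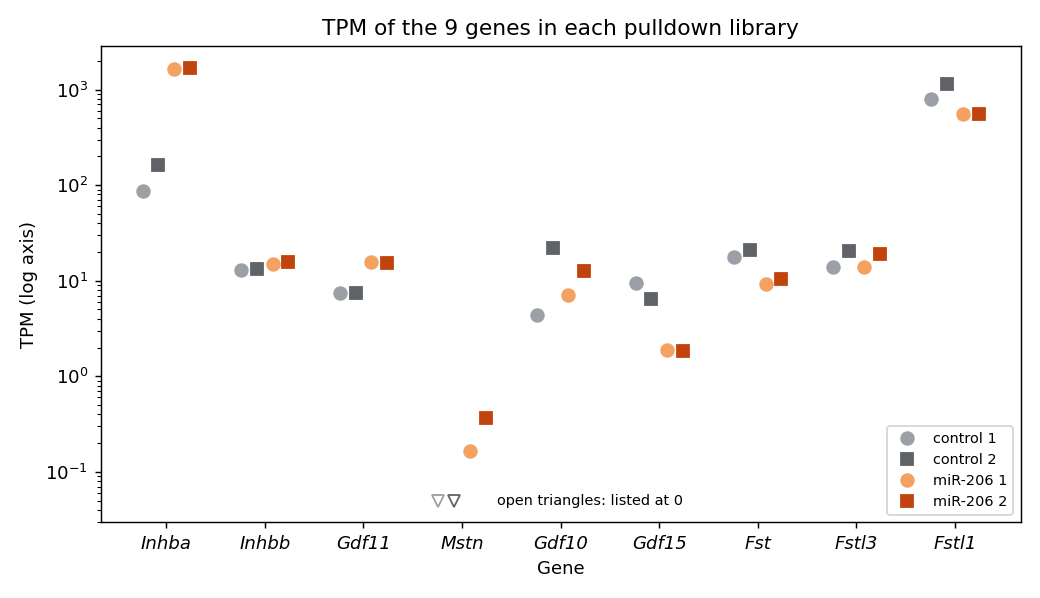
TPM (log axis) of the 9 genes in the 4 libraries; grey points are control libraries, orange and red points miR-206 libraries, circles replicate 1 and squares replicate 2, and open triangles stand for a value listed at 0. Inhba lies at 1645 and 1700 TPM in the miR-206 libraries and at 87.0 and 161 in the control libraries, whereas Fstl1 lies at 559 and 561 against 800 and 1133.

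Inhba, which encodes the subunit of activin A (GRCm38 chromosome 13, 16004256 to 16031609), had the largest log2 fold of the 8 genes tested. It measured 87.0 and 161 TPM in control replicates 1 and 2 and 1645 and 1700 TPM in miR-206 replicates 1 and 2. Both miR-206 libraries thus lay far above both control libraries, and they differed from each other less than the controls did. On the normalised scale it rose from 126 ± 57.5 to 3205 ± 69.5 CPM (SD, n = 2). The log2 fold was 4.67 ± 0.47 (SE; 95% interval 3.68 to 5.66, edgeR adjusted p = 8.8e-07). That is a 25.4-fold difference and rank 214 of the 15240 genes by log2 fold. By TPM it was row 950 and 605 of 28649 in the control libraries and row 31 and 30 in the miR-206 libraries. The call held in all 14 alternative settings, with log2 folds from 3.59 to 5.27 and adjusted p from 8.25e-43 to 0.000449.

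Gdf11, a ligand closely related to myostatin that patterns the embryonic axis (chromosome 10, 128880524 to 128891718), was called higher in every setting as well. It measured 7.43 and 7.52 TPM in the control and 15.7 and 15.2 in the miR-206 libraries. The replicates lay close together and the groups did not overlap. The log2 fold was 1.98 ± 0.29 (SE; 95% interval 1.36 to 2.60, edgeR adjusted p = 6.4e-05), which is 3.95-fold with TMM. In the 14 alternatives it ranged from 0.86 to 2.07, with adjusted p up to 0.0224. The lowest value came from total counts alone.

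Inhbb, which encodes the subunit of activin B (chromosome 1, 119415463 to 119422248), was called higher with TMM but not on every scale. Its level was 13.0 and 13.1 TPM in the control and 14.9 and 15.8 in the miR-206 libraries, so the groups did not overlap but lay close. The TMM log2 fold was 1.16 ± 0.29 (SE; 95% interval 0.56 to 1.77, edgeR adjusted p = 0.00676). With total counts it was 0.045 (adjusted p = 0.889) and with log2(TPM + 1) in limma 0.21 (0.487), and the call was lost in both. Set against the median gene in each setting, Inhbb lay 1.02 to 1.41 higher on the log2 scale.

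Mstn, the myostatin gene, a product of muscle fibres that limits their growth (chromosome 1, 53061640 to 53068079), was barely detected in these stromal cells. It had 0 counts in both control libraries and 5 and 13 counts in miR-206 replicates 1 and 2. Those counts correspond to 0.55 and 1.14 normalised CPM. Their mean was 4.63 times that of a floor of 3 counts per control library (0.209 and 0.157 CPM). Replicate 1 alone stood at 3.01 and replicate 2 alone at 6.25 times that floor, which covers counting error only. Without the count filter its edgeR adjusted p was 0.0968, so no difference was called. The 6 muscle fibre markers were summed at 114 and 62.1 TPM in the control and 59.5 and 36.5 in miR-206, and 0 of the 5 tested were called in either direction. Acta1, a fibre actin, had a log2 fold of 0.45 ± 0.35 (SE). The other tested fibre markers had negative ones: Ckm -0.86, Myh1 -0.23, Tnnt3 -0.17 and Mylpf -0.11. The part of fibre RNA in the Mstn counts was not tested.

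**Figure D2:**
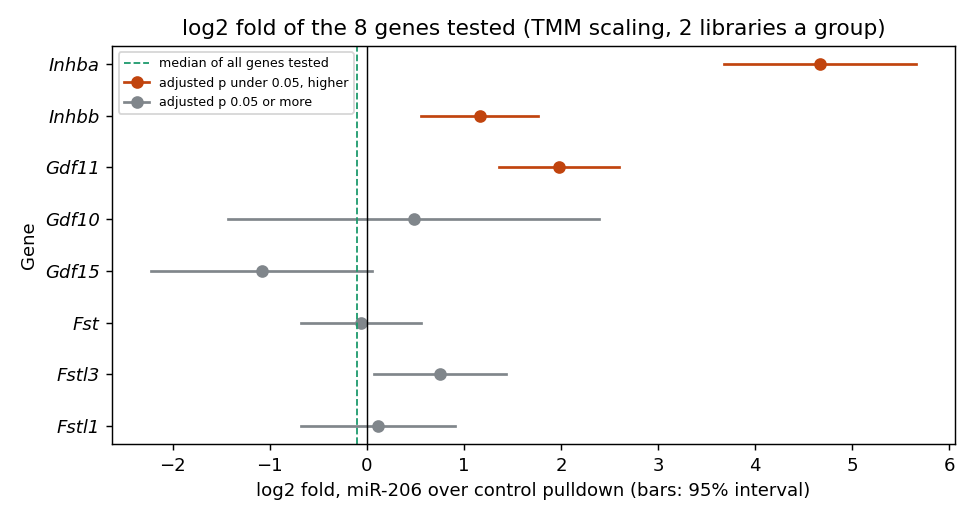
log2 fold (miR-206 over control, TMM scaling) of the 8 tested genes with 95% intervals; red marks an adjusted p under 0.05, grey one at or above it, and the dashed line is the median of all genes tested (-0.11). Inhba at 4.67, Gdf11 at 1.98 and Inhbb at 1.16 stand right of 0, and the interval of Gdf10 is the widest.

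Gdf10, also known as Bmp3b, is a ligand that FAPs make and that supports muscle mass in mouse (chromosome 14, 33923587 to 33936514). It measured 4.34 and 21.8 TPM in control replicates 1 and 2 and 7.08 and 12.7 in miR-206 replicates 1 and 2. The miR-206 values fell between the controls, which differed more from each other than the groups did. The log2 fold was 0.48 ± 0.76 (SE; 95% interval -1.43 to 2.40, edgeR adjusted p = 0.719). The control library left out decided the value, which was 2.18 without control replicate 2 (adjusted p = 0.00124) and -0.24 without control replicate 1 (0.636). Estimated counts were 105 and 737 in the control and 219 and 459 in miR-206.

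Gdf15, a stress-induced cytokine that acts through the receptor Gfral and its partner Ret (chromosome 8, 70629393 to 70632470), was lower in both miR-206 libraries. It measured 9.40 and 6.37 TPM in the control and 1.88 and 1.82 in miR-206, and the groups did not overlap. With TMM the log2 fold was -1.09 ± 0.54 (SE; 95% interval -2.23 to 0.06) and did not pass (edgeR adjusted p = 0.175). It passed with total counts (-2.23, adjusted p = 0.00703) and with log2(TPM + 1) (-1.62, 0.00883). Relative to the median gene its log2 fold lay between -1.21 and -0.75 in the 14 alternatives.

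The antagonist gene Fst (chromosome 13, 114452262 to 114458989) measured 17.8 and 21.2 TPM in the control and 9.34 and 10.3 in the miR-206 libraries. In TPM the groups did not overlap, with miR-206 lower. In normalised CPM they overlapped, at 27.8 and 34.8 for the control and 29.5 and 30.5 for miR-206. The log2 fold with TMM was -0.06 ± 0.29 (SE; 95% interval -0.68 to 0.56, edgeR adjusted p = 0.909). Fst was called lower with total counts (-1.16, adjusted p = 0.00582) and with log2(TPM + 1) (-0.92, 0.0269), the settings in which the median of all genes also moved down. Relative to the median gene, its log2 fold stayed between -0.15 and 0.21 in the 14 alternatives.

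Fstl1, the published miR-206 target, was abundant but not called enriched in any setting (chromosome 16, 37777055 to 37836516). It measured 800 and 1133 TPM in the control and 559 and 561 in the miR-206 libraries, among the first 118 rows of each library by TPM. In TPM the miR-206 libraries were the lower ones, without overlap, whereas in normalised CPM the 1492 and 1412 of miR-206 fell between the 1113 and 1571 of the control. The log2 fold was 0.11 ± 0.37 (SE; 95% interval -0.68 to 0.90, edgeR adjusted p = 0.867). It turned negative and passed with total counts (-0.99, adjusted p = 0.00737) and with log2(TPM + 1) (-0.76, 0.0415). Relative to the median gene it lay between -0.05 and 0.49 in the 14 alternatives.

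Fstl3, an antagonist that binds activin and myostatin as follistatin does (chromosome 10, 79777274 to 79782630), measured 13.9 and 20.3 TPM in the control and 14.0 and 19.0 in the miR-206 libraries. The groups overlapped fully in TPM. In normalised CPM they did not, with 16.2 and 26.3 for the control and 31.7 and 40.2 for miR-206. The log2 fold was 0.76 ± 0.32 (SE; 95% interval 0.08 to 1.44), which did not pass after adjustment (edgeR adjusted p = 0.108). It passed without control replicate 2 (1.19, adjusted p = 0.015) and was -0.32 with total counts and -0.040 with log2(TPM + 1), neither of which passed.

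Ratios of TPM within a library do not depend on how libraries are scaled against each other. Inhba RNA was 4.88 and 7.58 times that of Fst in the control libraries and 176 and 165 times in the miR-206 libraries. Against Fstl1 the order turned: Inhba stood at 0.109 and 0.142 of Fstl1 in the control and at 2.94 and 3.03 in miR-206. The ratio of Inhba to Inhbb went from 6.67 and 12.2 to 111 and 108, so the balance of the activin subunit genes also differed. Inhba over Fstl3 was 6.25 and 7.93 in the control and 117 and 89.5 in miR-206. In each of these 4 ratios both miR-206 libraries lay above both control libraries. All 4 have Inhba as the upper term, so they repeat its difference and are not 4 separate observations. The ratios are given as a description and were not tested, since an exact permutation test of 2 libraries against 2 cannot give a p below 0.333.

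**Figure D3:**
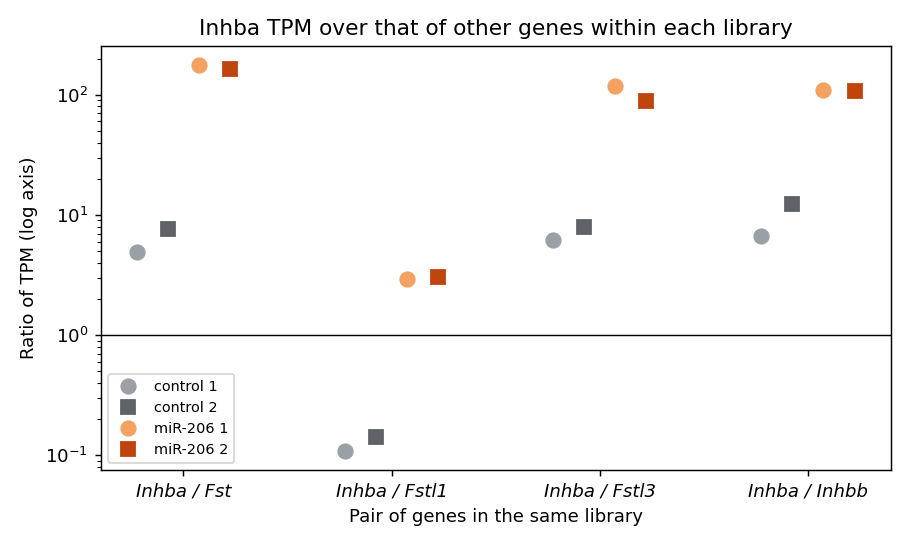
Ratio of Inhba TPM to that of Fst, Fstl1, Fstl3 and Inhbb within each library (log axis, line at 1); grey points are control libraries, orange and red points miR-206 libraries. Inhba over Fstl1 is 0.109 and 0.142 in the control and 2.94 and 3.03 in the miR-206 libraries, on either side of 1.

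Gdf11, Inhbb and Gdf15 shifted less against Fst than Inhba did. Gdf11 over Fst was 0.416 and 0.355 in the control and 1.68 and 1.48 in miR-206, and Inhbb over Fst went from 0.731 and 0.620 to 1.59 and 1.53. Gdf15 over Fst was 0.527 and 0.301 against 0.202 and 0.176. Fst over Fstl1 was nearly flat, with 0.0223 and 0.0187 in the control and 0.0167 and 0.0184 in miR-206. Summed over the 9 genes, the TPM was 953 and 1384 in the control and 2267 and 2336 in miR-206. Fstl1 held 83.9% and 81.9% of that sum in the control libraries and 24.7% and 24.0% in miR-206, and Inhba held 9.13% and 11.6% against 72.6% and 72.8%.

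In order of mean TPM, the control pulldown was led by Fstl1 (967 ± 236), followed by Inhba (124 ± 52.1), which did not overlap with it. Fst (19.5 ± 2.37), Fstl3 (17.1 ± 4.47), Inhbb (13.1 ± 0.070) and Gdf10 (13.1 ± 12.4) came next. Gdf15 (7.88 ± 2.14) and Gdf11 (7.47 ± 0.064) were lower, and Mstn was listed at 0. Neighbours from Fst down to Gdf11 lay within each other's spread, except that Inhbb stood below both libraries of Fstl3. In the miR-206 pulldown the order was Inhba (1672 ± 38.9), Fstl1 (560 ± 1.43), Fstl3 (16.5 ± 3.51), Gdf11 (15.5 ± 0.31), Inhbb (15.3 ± 0.65), Gdf10 (9.87 ± 3.95), Fst (9.83 ± 0.69), Gdf15 (1.85 ± 0.045) and Mstn (0.265 ± 0.142). There the neighbours Fstl3, Gdf11 and Inhbb overlapped, as did Gdf10 and Fst.

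**Figure D4:**
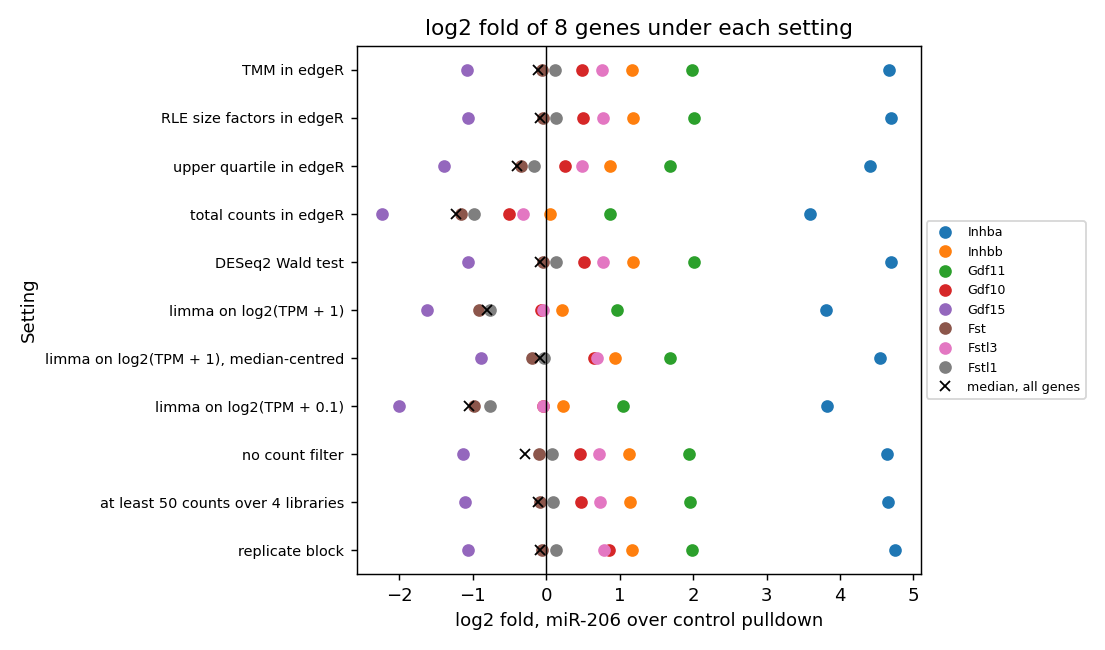
log2 fold (miR-206 over control) of the 8 tested genes under the main setting (TMM in edgeR) and the 10 alternatives that keep all libraries; crosses are the median of all genes tested in each setting. Inhba and Gdf11 stay right of 0 throughout, while Fst and Fstl1 move with the cross, down to -1.16 and -0.99 with total counts.

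The genes whose pattern over the 4 libraries was most like that of Fst or Fstl1 are named as a description. Likeness was the distance between log2 normalised CPM centred on each gene's mean, among 8600 other genes with a mean of at least 10 CPM. Nearest to Fst were Sae1 (0.0444), Oat (0.0486) and Psmd12 (0.0540). Nearest to Fstl1 were Elp3 (0.0333), Tnc (0.0365) and Dcaf12 (0.0454). The measure fixes their difference between the groups near that of Fst and Fstl1.

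Of the other genes of the pathway, 55 were listed, 54 have a row and 46 were tested. Among these 6 were called higher and 1 lower, against 15.3% and 6.19% of all genes tested, and their median log2 fold was -0.05. The calls lay among the proteases, receptors, transducers and targets. Of 5 tested proteases that cut ligand precursors 1 was higher: Pcsk5, a proprotein convertase that cleaves the Gdf11 precursor, rose from 7.54 and 14.0 TPM in the control to 25.1 and 46.5 in miR-206 (log2 fold 2.64 ± 0.40, edgeR adjusted p = 0.000122). Furin, the general convertase of this family, had 0.49 and did not pass.

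The type II receptors of activin and myostatin were not called with TMM. Acvr2a measured 4.34 and 8.56 TPM in the control and 7.20 and 5.77 in miR-206, which overlapped. Its normalised CPM did not, at 17.3 and 35.8 in the control against 58.1 and 43.6 in miR-206. Acvr2a had a log2 fold of 0.93 ± 0.35 (edgeR adjusted p = 0.0710). It passed with no count filter (0.91, adjusted p = 0.0260), and also when control replicate 2 (1.60, 0.00275) or miR-206 replicate 2 (1.15, 0.0418) was left out. Acvr2b was low in all libraries, at 1.91 and 3.74 TPM against 1.84 and 2.70, with 0.57 ± 0.63 (0.565). The type I receptor gene Acvr1b had a log2 fold of -0.19 ± 0.30 (adjusted p = 0.703). Bmpr2, a type II receptor used mainly by BMPs, rose from 5.57 and 5.22 to 28.5 and 18.6 TPM, a log2 fold of 3.25 ± 0.37 (3.4e-06). In this group of 10 tested receptors and co-receptors, Bmpr2 was thus the higher call and Ret the lower one. Among all genes tested, 15.3% were higher calls and 6.19% lower ones.

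Ret, the signalling partner of the Gdf15 receptor, measured 1.26 and 2.23 TPM in the control and 0.178 and 0.314 in miR-206. Its log2 fold was -1.90 ± 0.55 (edgeR adjusted p = 0.0182), from 94 and 231 counts against 17 and 35. That call was lost in limma with log2(TPM + 1) (-1.12, adjusted p = 0.0856), the same median-centred (-0.39, 0.635) and log2(TPM + 0.1) (-2.39, 0.0776). It was also lost when control replicate 2 (0.140), miR-206 replicate 1 (0.227) or miR-206 replicate 2 (0.0605) was left out. Gfral itself had between 3 and 14 counts per library and did not pass the filter on low counts.

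Among 8 signal transducers 3 were called higher and 0 lower, against 15.3% and 6.19% of all genes tested. Smad4, the shared partner of all receptor-activated SMADs, rose from 13.1 and 13.5 to 31.5 and 52.9 TPM (log2 fold 2.59 ± 0.33, edgeR adjusted p = 1.4e-05). Zfyve9, also called SARA, which presents Smad2 and Smad3 to the receptor, rose from 3.38 and 3.09 to 15.9 and 12.1 TPM (3.05 ± 0.32, adjusted p = 1.4e-06). Smurf2, a ubiquitin ligase that limits the pathway, rose from 9.74 and 12.7 to 20.5 and 40.1 TPM (2.65 ± 0.35, 2.1e-05). In these 3 genes, and in Pcsk5 and Bmpr2, the call held in all 14 alternatives. Their normalised CPM did not overlap between the groups, which was also so for 62% of all genes tested. Smad2 (0.002 ± 0.44, adjusted p = 0.998) and Smad3 (0.079 ± 0.33, 0.894), the SMADs that activin and myostatin activate, were not called.

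**Figure D5:**
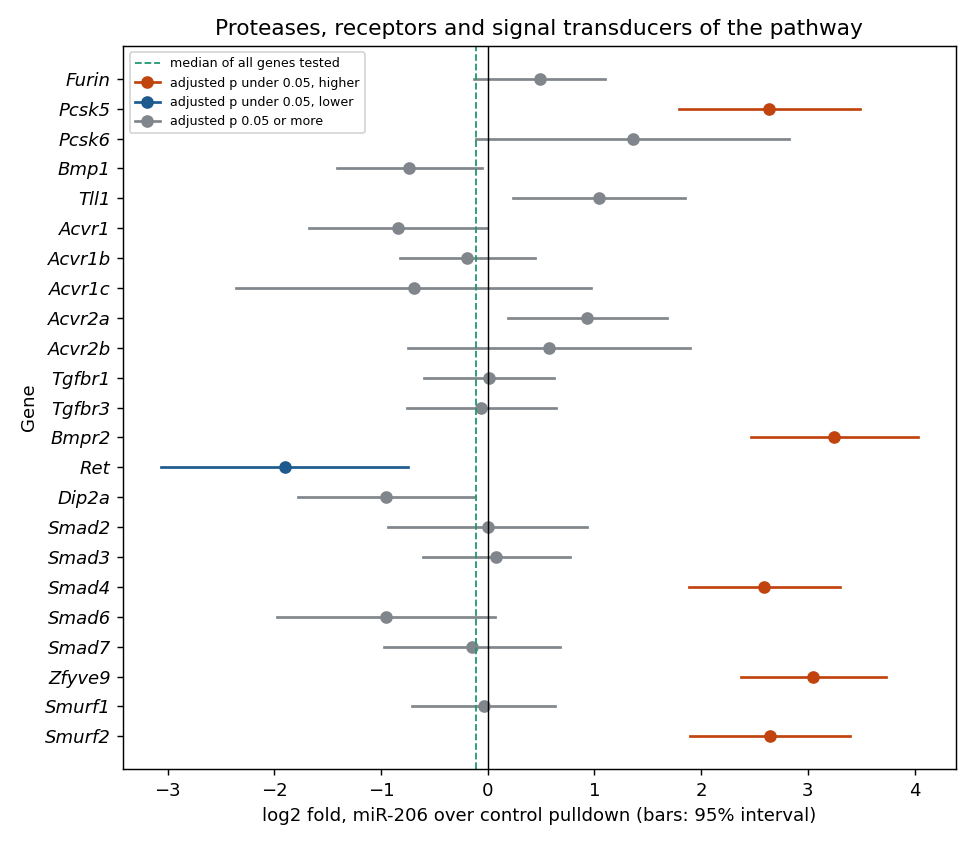
log2 fold (miR-206 over control, TMM scaling) with 95% intervals for the 23 tested proteases, receptors and signal transducers of the pathway; red marks genes called higher, blue the gene called lower, grey those not called, and the dashed line the median of all genes tested. Pcsk5, Bmpr2, Smad4, Zfyve9 and Smurf2 lie between 2.59 and 3.25, and Ret at -1.90.

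Of 7 tested target genes 1 was called, against 21.5% of all genes tested (15.3% higher and 6.19% lower). The called gene was Pmepa1, a TGF-beta-induced membrane protein that dampens SMAD signalling. Its log2 fold was 1.05 ± 0.31 (edgeR adjusted p = 0.0196), but its TPM overlapped, with 26.4 and 24.6 in the control and 23.5 and 31.1 in miR-206. The call was lost with total counts (-0.056, adjusted p = 0.865), with log2(TPM + 1) (0.086, 0.790) and its median-centred form (0.81, 0.0734), with log2(TPM + 0.1) (0.089, 0.798), and without miR-206 replicate 2 (0.133). Of the 14 other antagonists and proteins with a follistatin-type domain, among them Dcn, Sparc and Igfbp7, 0 were called. Of the 2 tested ligand relatives, Inha and Gdf3, 0 were called. With 2 libraries a group, a gene that misses the threshold is not shown to be equal between the pulldowns.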

How the data were processed

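RNA captured with a miR-206 or a control mimic was sequenced in 4 libraries, 2 per group, grouped by sample title. Columns were tied to samples by the barcodes in the titles, with 0 per-sample columns left over. The deposited estimated counts and TPM were made by the authors with kallisto on mm10, per the submitters' processing notes; the sources used here give neither version nor annotation. Each row names 1 transcript, and how transcripts were joined to genes is not stated. The TPM leave 25.6% to 37% of a library's fixed total in features not analysed here. In a further deposited sheet the authors give the mean TPM signal per group, its log2 and a log2 fold of miR-206 over control. That sheet was read, but no value of it is used in the text. The sheet of transcription factor names was not used.

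Estimated counts were rounded and tested in edgeR 4.0.16 (R 4.3.3) with glmQLFit and glmQLFTest (robust), TMM scaling, group as the only term and filterByExpr, which kept 15240 genes. P-values were adjusted over them by Benjamini-Hochberg, with a threshold of 0.05. The SE is the size of the log2 fold over the square root of F, and the 95% intervals are built from it; neither covers the choice of scaling. Normalised CPM outside the filter use the same library sizes, and a floor of 3 counts was used for a group at 0. limma 3.58.1 (log2(TPM + 1) and log2(TPM + 0.1), mean TPM of at least 1 in a group), DESeq2 1.42.0, other scalings, filters, a replicate block and leaving out each library were alternatives. The fit was tested on simulated counts. Gene positions and microRNA sequences are from RefSeq (GRCm38.p6), and 9 of 9 symbols matched. The genes and lists were chosen with earlier results of these data known. The rule for named genes takes each of the 9, every called pathway gene, Acvr2a, Acvr2b, Acvr1b, Smad2 and Smad3, and the 3 nearest genes to Fst and to Fstl1; other names were chosen after their values were seen. The intervals and floors cover counting error and the spread of these libraries, not independent molecules.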

Additional observations from a re-analysis of the deposited data

How the results depend on the processing

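Inhba and Gdf11 kept their calls in all 14 alternatives, as did Pcsk5, Bmpr2, Smad4, Zfyve9 and Smurf2. Most changes of direction among the other results came with the scaling or the unit. The calls of Gdf10, Fstl3, Ret, Acvr2a and Pmepa1 also changed with the library left out. With total counts alone, limma on log2(TPM + 1) and limma on log2(TPM + 0.1), in that order, the values were as follows. Genes called higher numbered 1070, 1063 and 1071 (2327 with TMM) and lower 6909, 5357 and 5458 (944; 1962 with the upper quartile), so the share of calls that were higher was 13.4%, 16.6% and 16.4% against 71.1%, and 48.8% with the upper quartile. These calls were out of 15240, 14870 and 14870 genes tested. Of the 8 tested genes described here, 3, 3 and 3 were called lower (Fst, Fstl1 and Gdf15). Pathway genes called lower numbered 23, 14 and 14 (1 with TMM, 4 with the upper quartile, 0 with median-centred TPM). The log2 folds were -1.16, -0.92 and -0.98 for Fst, -0.99, -0.76 and -0.77 for Fstl1, -0.32, -0.040 and -0.041 for Fstl3, 0.045, 0.21 and 0.23 for Inhbb, -0.51, -0.073 and -0.045 for Gdf10, and -2.23, -1.62 and -2.01 for Gdf15. For Acvr2b they were -0.48, -0.20 and -0.25, for Smad2 -1.06, -0.80 and -0.97, and for Smad3 -1.08, -0.93 and -1.09; Acvr2a and Pmepa1 turned only with total counts (-0.16 and -0.056). With the upper quartile, Fstl1 stood at -0.17, Smad2 at -0.26 and Smad3 at -0.23, and with median-centred TPM at -0.037, -0.070 and -0.20. Smad2 was -0.032 with no count filter and -0.017 with at least 50 counts over the libraries.

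Leaving out 1 library gave 1655 to 2576 genes higher and 358 to 1535 lower, 3 to 5 of the 9 genes higher (5 without control replicate 2, which adds Fstl3 and Gdf10) and 0 lower, and 6 to 9 pathway genes higher and 0 to 6 lower. Log2 folds then ranged from -0.19 to 0.15 for Fst, -0.094 to 0.42 for Fstl1, 0.47 to 1.19 for Fstl3, 4.29 to 5.27 for Inhba, 1.11 to 1.24 for Inhbb, 1.87 to 2.07 for Gdf11, -0.24 to 2.18 for Gdf10 and -1.27 to -0.80 for Gdf15. They ranged from -0.40 to 0.12 for Acvr1b, -0.42 to 0.70 for Smad2 and -0.15 to 0.42 for Smad3. A lone library is assumed to vary like the other group. Nothing says that equal replicate numbers pair libraries, and the differences between replicates correlated at r = -0.057 across genes between the groups. With the replicate block 2576 genes were called higher and 1129 lower, Gdf10 passed (0.85, edgeR adjusted p = 0.0485) and so did Acvr2a (1.01, 0.0108). The cause of these changes was not tested. Mstn and Gfral had too few counts to pass the filter of the main fit.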
